A study of Mus musculus with 6 samples.

Results

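Sequencing of poly(A)-selected RNA from mouse tail-tip skin cells compared cells that had received CRISPR activation vectors with control fibroblasts. The comparison described here pools the 4 CRISPR activation libraries, called CRISPRa libraries below, as 1 group against the 2 control libraries, so that it takes in 6 of the 6 libraries of the series. All cells were wild type. The 2 fibroblast libraries (day 0) received lentiviral vectors labelled as negative. The 2 early libraries (day 7), labelled as early or partially reprogrammed cells, received CRISPRa vectors, and the 2 late libraries (day 22) received the same kind of vectors followed by isolation of colonies, and are labelled as cardiac progenitors. The labels name the SAM form of CRISPR activation. The labels used here do not name the genes it was aimed at, the number of animals or whether replicates are separate cultures, so p-values cover the variation among these libraries alone, which may be technical. The early and late columns of the table were told apart by their names. The pooled comparison gives the same result whichever pair is early, whereas the values per stage would change places.

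In CRISPR activation a Cas9 protein that cannot cut carries transcriptional activators to the promoter of a chosen gene, which is then transcribed from its own locus. Heart development is driven by a small network of transcription factors of the GATA, T-box, NK homeobox, HAND and LIM homeobox families, which switch on each other's genes. Tail skin fibroblasts keep a positional code of posterior Hox genes, and in culture they take on a matrix-rich, contractile state and raise inhibitors of the cell cycle. Pooling both stages asks which differences from fibroblasts were already there at day 7 and were still there at day 22.

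Total counts ranged from 20172874 to 40122999 per library. Late replicate 2 stood apart. Mitochondrially encoded transcripts took 10.3% of its counts against 1.49% to 2.16% in the other 5 libraries, and the listed sarcomere genes, which form the contractile apparatus of heart muscle, summed to 84180 CPM (counts scaled to library size) against 1370 to 2219 CPM elsewhere. Xist, the RNA that coats the inactive X, had 54.6 CPM in fibroblast replicate 1, 61.2 CPM in late replicate 1 and no more than 0.337 CPM elsewhere. It thus divided the fibroblast pair and the late pair, and what it has to do with the differences described below was not tested. The fibroblast marker Col1a1 was present in every library, at 1471 and 3296 CPM in controls against 1208 to 3445 CPM in CRISPRa libraries. Macrophage and leukocyte markers were also present in the controls and summed to 356 and 1465 CPM there.

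Of 16688 genes with enough counts to test, 721 rose and 995 fell in CRISPRa libraries by edgeR's quasi-likelihood test with an adjusted p under 0.05, which are 4.32% and 5.96% of the tested genes. Ranks of the libraries gave wider sets. All 4 CRISPRa libraries lay above both fibroblast libraries for 4233 genes (25.4%) and below both for 3972 genes (23.8%), so the arms did not overlap for 8205 genes (49.2%). Each of the 1716 called genes had its 4 CRISPRa libraries on the same side of both controls. The distance between the nearest libraries of the arms was over 1 on the log2 CPM scale for 1098 of the 4233 genes above and 887 of the 3972 below, and over 5 for 18 and 22. Rises were larger than falls among called genes, with a median log2 fold change of 2.97 in size for rises and 1.88 for falls.

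The number of calls depended on which libraries were included. Without fibroblast replicate 1 no gene was called by edgeR (3142 at an unadjusted p under 0.05) and without fibroblast replicate 2 there was 1 call (2658 at an unadjusted p under 0.05). Such a fit keeps 1 control library, which is assumed to vary like the CRISPRa libraries. The count was 36 higher and 34 lower without early replicate 1, 22 and 43 without late replicate 1, 1087 and 1319 without early replicate 2, and 1554 and 1666 without late replicate 2. In these 6 fits between 1696 and 1716 of the 1716 called genes were fitted with the same direction. Genes filtered out of a fit were not counted as keeping it. Each called gene had its CRISPRa libraries on one side of both controls, so leaving out 1 library could hardly reverse its direction. These counts of direction are therefore no test. DESeq2, another count test, called 2511 higher and 2115 lower.

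Early and late libraries differed little at the called genes. The difference between late and early was under 1 on the log2 scale for 680 of 721 genes that rose and 823 of 995 that fell, against 12870 of all 16688. The pooled fit counts the difference between stages as spread, so a gene that differs widely between them is seldom called and these shares follow in part from the test. In a fit with 3 groups, 0 genes were called between late and early cells by edgeR (0.00%), with 1709 at an unadjusted p under 0.05 and a smallest adjusted p of 0.213, while DESeq2 called 1108. The 3-group fit called 255 genes between early cells and fibroblasts and 237 between late cells and fibroblasts, 1.53% and 1.42% of the tested genes. Both comparisons use the same control libraries. Of the 721 genes that rose in the pooled comparison, 79 were called in both stages and 600 in neither. Of the 995 that fell, 67 were called in both and 846 in neither.

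**Figure D1:**
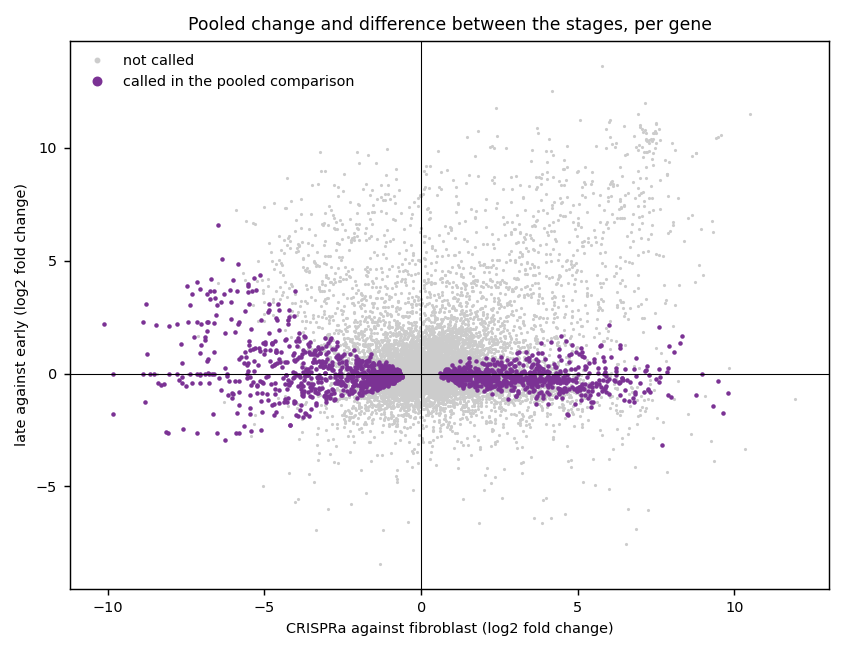
Each point is 1 of the 16688 tested genes, with the log2 fold change of CRISPRa against fibroblast libraries on the x axis and that of late against early cells on the y axis. Purple points are the 1716 genes called in the pooled comparison, which lie close to 0 on the y axis for rises and spread further for falls, where 73 of 995 differ by more than 2 between the stages.

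Among transcription factors of heart development, 8 of 27 tested members rose and 0 fell, and 14 had all CRISPRa libraries above both controls and 0 below. Gata4, a zinc-finger factor needed for heart formation (ENSMUSG00000021944, chromosome 14, 63198922 to 63271692 in GRCm38), had 0.168 and 0.324 CPM in controls, reached 19.8 and 17.8 CPM in early libraries and stood at 44.2 and 113 CPM in late ones. Every CRISPRa library was far above both controls, and late libraries were the higher ones (pooled log2 fold change 7.59 ± 1.26 (SE), edgeR adjusted p = 0.0303). Gata6, its relative in heart and endoderm, rose from 0.739 and 0.853 CPM to 66.1 and 165 CPM early and 80.8 and 92.7 CPM late (6.98 ± 0.57, adjusted p = 0.0105). Gata5, the third GATA factor of the heart, had no counts in either fibroblast library and was at 1.38, 0.568, 0.834 and 1.46 CPM in CRISPRa libraries, which is at least 23.6-fold higher against a floor of 3 counts over both controls (edgeR adjusted p = 0.0281). Tbx5, a T-box factor of the heart and forelimb, had 3 fibroblast counts and was at 11.9, 3.55, 8.0 and 41.4 CPM, a ratio of 413 (exact 95% counting interval 141 to 2000, counting error only, edgeR adjusted p = 0.0444).

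The cofactors that bind GATA factors rose too, by less. Zfpm2 (FOG2) was at 10.3 and 10.1 CPM in controls against 45.2, 47.1, 38.5 and 39.9 CPM in early and late libraries, a log2 fold change of 2.06 ± 0.19 (edgeR adjusted p = 0.0125). Zfpm1 (FOG1) rose by 2.01 ± 0.27 (adjusted p = 0.0238), from 10.2 and 13.1 CPM to between 35.2 and 56.1 CPM. Tbx2, a T-box repressor of the non-chamber myocardium, was at 0.537 and 0.588 CPM in controls, 6.90 and 8.52 CPM early and 17.2 and 15.8 CPM late (4.41 ± 0.60, adjusted p = 0.0243). Hand2, a basic helix-loop-helix factor of the ventricles, was at 1.38 and 1.41 CPM against 18.0, 128, 45.0 and 52.4 CPM (5.44 ± 0.97, adjusted p = 0.0336). Neither Hand2 nor Tbx5 passed the test in a single stage (adjusted p = 0.0603 and 0.0645 for Hand2, 0.0712 and 0.0601 for Tbx5, early and late), whereas both passed with the stages pooled.

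Several heart factors lay above the controls in all 4 CRISPRa libraries without passing the test. Isl1, a LIM homeobox factor of the second heart field, showed 0.101 and 0.0294 CPM in fibroblasts, 16.4 and 9.70 CPM early and 6.34 and 0.758 CPM late (6.92 ± 1.62, edgeR adjusted p = 0.0506). Tbx20, a T-box repressor, had 0.839 and 1.29 CPM against 43.9, 6.20, 89.9 and 114 CPM (5.89 ± 1.37, adjusted p = 0.0502). Nkx2-5, an NK homeobox factor of the heart, had 0.0336 and 0.147 CPM against 6.46, 1.75, 6.5 and 71.9 CPM (7.81 ± 2.29, adjusted p = 0.0767). Late replicate 2 stood far above the rest. Mef2c, a MADS-box factor of muscle, did not separate the arms, with 14.3 and 22.7 CPM in controls and 8.11 to 45.0 CPM in CRISPRa libraries (0.26 ± 0.71, adjusted p = 0.813).

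Outside the heart list, the largest shared rises among called genes with a mean log2 CPM of at least 3 came from unlike gene families. Called genes below that level had fitted log2 fold changes of up to 9.8, which rest on few or no control counts. Podxl, a sialomucin of podocytes and mesothelium, was at 0.772 and 1.18 CPM in controls against 334, 107, 215 and 248 CPM in early and late libraries (log2 fold change 7.85 ± 0.69, edgeR adjusted p = 0.0125). Frmd5, a FERM-domain protein of cell junctions, stood at 0.235 and 0.441 CPM against 50.0, 48.8, 53.6 and 178 CPM (7.90 ± 1.0, adjusted p = 0.0219). Both genes were under 1.2 CPM in controls and at or above 48.8 CPM in every CRISPRa library. Rgs5, a regulator of G protein signalling typical of pericytes, was at 2.08 and 2.38 CPM against 115 to 416 CPM (6.80 ± 0.81). Krt19, a keratin of simple epithelia, was at 3.29 and 2.88 CPM against 105 to 444 CPM (6.30 ± 0.77). The largest rises above that level also comprised Prdm6, a PR-domain regulator of smooth muscle, Ildr2, Gldc, the glycine decarboxylase, Aldh3a1, an aldehyde dehydrogenase, and Hp and Lcn2, secreted acute-phase proteins, with log2 fold changes from 6.23 to 7.24 and adjusted p from 0.00901 to 0.0278.

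**Figure D2:**
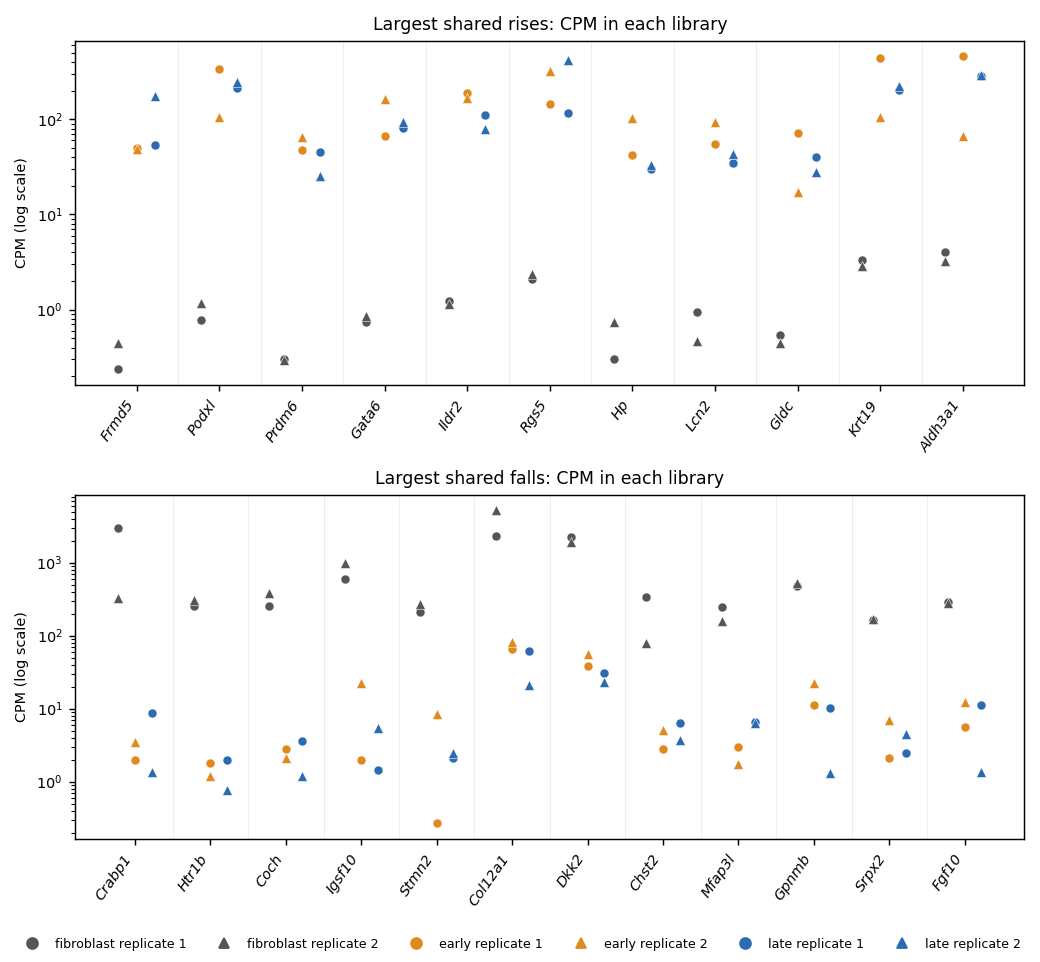
CPM in each of the 6 libraries on a log axis for called genes with the largest rises (upper panel, Gata6 among them) and the largest falls (lower panel) among genes with a mean log2 CPM of at least 3. Grey marks are fibroblast, orange early and blue late libraries. In each gene the 4 CRISPRa marks lie on one side of both grey marks.

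Some shared changes had almost the same level at day 7 and day 22. Cd38, an enzyme of the cell surface that degrades NAD (ENSMUSG00000029084, chromosome 5, 43868553 to 43912375), had 1.98 and 0.735 CPM in controls against 29.9, 26.9, 26.6 and 28.8 CPM in early and late libraries. Its 4 CRISPRa values had an SD of 0.08 on the log2 scale, while the pooled log2 fold change was 4.37 ± 0.49 (edgeR adjusted p = 0.0188). Nsg1, a protein of endosomal vesicles in neurons, went from 5.61 and 7.30 CPM to 144, 133, 138 and 108 CPM (4.34 ± 0.25, adjusted p = 0.00617). Gata2, a GATA factor of blood and endothelial lineages that the heart list did not hold, stood at 3.29 and 1.65 CPM against 26.9, 30.8, 37.9 and 34.5 CPM (3.72 ± 0.39, adjusted p = 0.0169). These genes were picked for a small SD over the 4 CRISPRa libraries. That late replicate 2, with its heart muscle transcripts, lay near the other 3 therefore follows from the choice. For Nsg1 it lay below them, at 108 CPM against 133 to 144 CPM.

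The other even rises were those of Zfpm2, Rcor2, a corepressor of the REST complex, Mgat4a, a glycosyltransferase, Pim3, a serine/threonine kinase, and Rbmx, an RNA-binding protein of splicing that has retrocopies in the genome. Pim3 was at 14.0 and 16.0 CPM against 80.7, 78.2, 59.5 and 66.0 CPM (2.24 ± 0.21, edgeR adjusted p = 0.0132). These 5 genes had log2 fold changes from 2.04 to 2.33 and an SD over the CRISPRa libraries of 0.14 to 0.23. Even genes were picked for a small SD, so that evenness describes them and is no test.

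Even falls were as flat. Cdr2, a cytoplasmic antigen of Purkinje cells and gonads (ENSMUSG00000030878, chromosome 7, 120957036 to 120982312), had 184 and 92.2 CPM in controls against 33.5, 32.0, 33.7 and 34.4 CPM in CRISPRa libraries (-2.05 ± 0.27, edgeR adjusted p = 0.0223, SD 0.04 over the CRISPRa libraries). Its 2 controls differed more from each other than any of the 4 CRISPRa libraries did. Ephb6, an ephrin receptor without kinase activity, was at 64.8 and 39.1 CPM against 4.28, 3.79, 3.83 and 4.24 CPM (-3.68 ± 0.25, adjusted p = 0.00858). Tesk2, a testis kinase, was at 55.1 and 43.2 CPM against 4.63 to 5.87 CPM. Angptl2, a secreted angiopoietin-like protein, Xylt1, a xylosyltransferase that starts proteoglycan chains, Tspan17 and Ttc39b fell by 2.04 to 2.60 on the log2 scale.

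**Figure D3:**
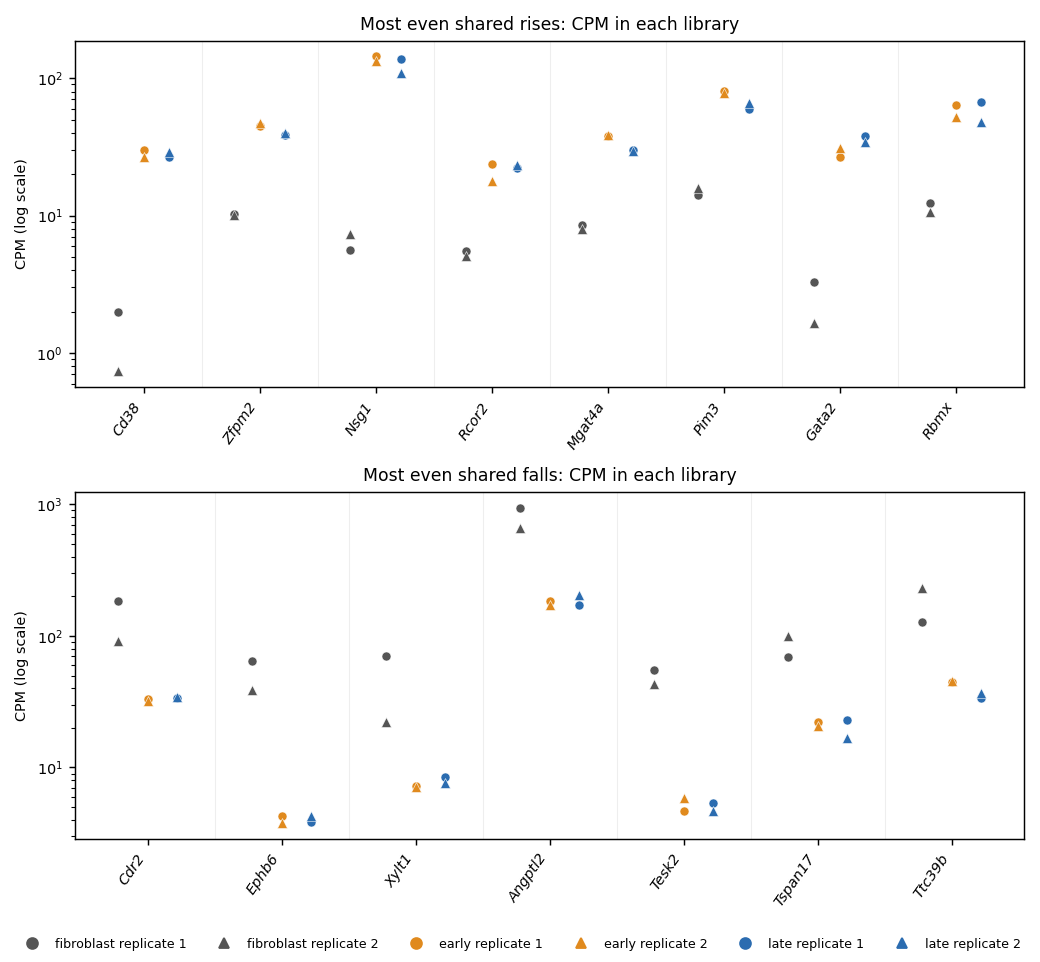
CPM in each library on a log axis for called rises (upper panel) and falls (lower panel) with the smallest SD over the 4 CRISPRa libraries. The orange and blue marks of a gene nearly coincide, for example at 26.6 to 29.9 CPM for Cd38 and 32.0 to 34.4 CPM for Cdr2, while the grey control marks lie apart from them.

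The 250 bases before the transcription start are shown for 4 called genes that differed between the arms more than between the stages. These are the even genes Gata2, Cd38 and Cdr2, and Dkk2 from the largest falls described below. The labels used here do not name the targets of CRISPR activation, and whether it acted at these promoters was not tested. The sequences are from RefSeq on GRCm38.p6, read on the strand of the gene, and 11579 of 16685 tested symbols had an entry. The start is the one in RefSeq. For Cd38 it lies downstream of the gene start given above, 43868553, so the whole Cd38 window falls inside those gene coordinates. Capitals mark matches on either strand to the motifs that are given with their shares after the sequences, except the NF-kB motif, which was not marked.
Gata2, chr6:88193641-88193890, plus strand: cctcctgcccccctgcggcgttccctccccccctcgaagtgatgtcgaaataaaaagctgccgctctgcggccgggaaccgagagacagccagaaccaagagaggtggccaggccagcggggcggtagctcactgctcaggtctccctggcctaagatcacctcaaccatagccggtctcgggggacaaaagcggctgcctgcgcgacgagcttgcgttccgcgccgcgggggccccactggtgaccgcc
Cd38, chr5:43868559-43868808, plus strand: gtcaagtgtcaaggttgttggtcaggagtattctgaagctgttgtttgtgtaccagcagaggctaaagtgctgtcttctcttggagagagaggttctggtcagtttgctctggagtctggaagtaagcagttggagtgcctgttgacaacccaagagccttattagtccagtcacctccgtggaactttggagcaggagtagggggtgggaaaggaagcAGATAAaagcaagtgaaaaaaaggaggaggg
Cdr2, chr7:120982313-120982562, minus strand: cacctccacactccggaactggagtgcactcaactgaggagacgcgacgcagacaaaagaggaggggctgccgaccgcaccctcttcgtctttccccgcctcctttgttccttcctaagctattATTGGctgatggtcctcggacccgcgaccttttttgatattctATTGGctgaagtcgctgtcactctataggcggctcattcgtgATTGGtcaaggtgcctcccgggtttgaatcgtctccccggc
Dkk2, chr3:132085042-132085291, plus strand: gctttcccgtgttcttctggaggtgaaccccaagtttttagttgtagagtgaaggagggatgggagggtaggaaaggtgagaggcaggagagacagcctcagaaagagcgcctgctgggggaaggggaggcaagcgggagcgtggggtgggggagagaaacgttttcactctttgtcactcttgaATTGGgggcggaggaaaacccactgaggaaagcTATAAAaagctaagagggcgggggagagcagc
In these windows Cd38 had an AGATAA match that began 31 bases before the RefSeq start, and so inside the gene coordinates given above. Cdr2 had 3 matches to the CCAAT box on the reverse strand. Dkk2, a secreted Wnt antagonist described below, had a TATA box match that began 32 bases before the start. It also had a match to the reverse CCAAT box. Gata2 had no match to a marked motif. Over all tested genes with a promoter entry 5.79% held AGATAA, the motif of GATA factors, against 6.46% of the 480 with a rise and 5.84% of the 719 with a fall. TTTCCCGC, an E2F motif, was in 1.71% of all, 3.54% of rises and 1.11% of falls. In the same order, the TATA box TATAAA was in 6.77%, 5.83% and 9.18%, the AP-1 motif TGACTCA in 3.14%, 3.12% and 4.31%, the CCAAT box in 36.1%, 40.0% and 36.0%, the E-box CACGTG in 8.15%, 7.50% and 11.1%, and an NF-kB motif, whose letters are not printed, in 0.0691%, 0.208% (1 gene) and 0.0% (0 genes). The median GC content was 60.0% for all, 61.6% for rises and 59.6% for falls. A match describes letters and not a bound site.

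Among called genes with a mean log2 CPM of at least 3, the largest shared falls came from binding proteins, receptors and matrix proteins. Less expressed genes, such as Hoxb13 and Rspo2 described below, fell by more than most of these. Crabp1, a retinoic acid-binding protein of dermal cells, was at 3015 and 328 CPM in controls against 1.96, 3.50, 8.63 and 1.35 CPM in early and late libraries (log2 fold change -8.76 ± 1.23, edgeR adjusted p = 0.0253). Htr1b, a serotonin receptor, was at 253 and 309 CPM against 1.78, 1.18, 1.96 and 0.758 CPM (-7.63 ± 0.43, adjusted p = 0.00617). Coch, cochlin of the extracellular matrix, was at 255 and 385 CPM against 1.21 to 3.54 CPM (-7.05 ± 0.47, adjusted p = 0.00858). Col12a1, a fibril-associated collagen, was at 2327 and 5191 CPM against 65.7, 81.9, 61.3 and 21.2 CPM (-6.03 ± 0.63, adjusted p = 0.0169). All CRISPRa libraries stayed at or below 81.9 CPM for these genes. The 12 largest falls above that level also held Igsf10, Stmn2, a microtubule regulator of neurons, Chst2, a sulfotransferase, Mfap3l, Gpnmb, Srpx2, Fgf10 and Dkk2, with log2 fold changes from -6.65 to -5.25.

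Matrix genes did not fall as a block. Of 38 tested fibroblast and matrix genes 8 fell and 1 rose, and 16 had all CRISPRa libraries below both controls and 2 above. The median log2 fold change was -1.10, against 0.117 over all tested genes. The counts of this and the other lists stand beside shares over all tested genes of 4.32% called higher, 5.96% called lower, 25.4% above both controls and 23.8% below both. A single call in a list describes that gene and does not set the list apart from these shares. Thbs1, the matricellular protein thrombospondin 1, was at 12186 and 18909 CPM against 437, 530, 668 and 114 CPM (-5.15 ± 0.69, edgeR adjusted p = 0.0241). S100a4, a calcium-binding protein of motile fibroblasts, was at 1452 and 939 CPM against 128, 156, 110 and 68.1 CPM (-3.37 ± 0.37, adjusted p = 0.0175). Col14a1, which binds to collagen fibrils, went the other way, from 0.940 and 1.15 CPM to 60.7, 81.8, 113 and 57.1 CPM (6.22 ± 0.45, adjusted p = 0.00901). Fibril-associated collagens were thus found both among the rises (Col14a1) and among the falls (Col12a1). In bulk RNA fewer cells of a type and less RNA per cell cannot be told apart.

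Of 25 transcription factors of the mesenchyme 5 fell and 0 rose, and 9 had all CRISPRa libraries below both controls and 2 above, where 5.96% of all tested genes fell and 23.8% lay below both. Their median log2 fold change was -0.36. Shox2, a homeobox factor of the limb and the sinus node, was at 97.1 and 80.9 CPM against 10.3, 4.83, 7.96 and 8.03 CPM (-3.51 ± 0.31, edgeR adjusted p = 0.0125). Twist2, a dermal fibroblast factor, Snai2, the zinc-finger repressor Slug, En1, a homeobox factor of skin fibroblast lineages, and Twist1 fell by 3.50, 3.19, 4.70 and 1.36 on the log2 scale (adjusted p = 0.0252, 0.0255, 0.0416 and 0.0459). Twist1 was still at 42.0 to 86.8 CPM in CRISPRa libraries, against 164 and 191 CPM in controls. Of 22 contractile genes of smooth muscle 2 fell, Cald1 and Tpm2, and 1 rose, the pericyte regulator Rgs5, which is close to the shares over all genes (5.96% and 4.32%). Of the 22 members 17 had a negative log2 fold change, 8 lay below both controls and 3 above, and the median was -1.23. Cald1, which binds actin and myosin, was at 2467 and 3947 CPM against 166 to 533 CPM (-3.28 ± 0.58, adjusted p = 0.0333). Tpm2, a tropomyosin, fell by 1.99 ± 0.32.

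Hox genes, which record position along the body axis, were called in both directions. Of 20 anterior and middle Hox genes 4 rose and 0 fell, and the 4 are neighbours in the HoxA cluster. All CRISPRa libraries lay above both controls for 9 of the 20 and below both for 1. Hoxa2 was at 0.403 and 0.382 CPM in fibroblasts against 11.7, 28.5, 22.1 and 7.81 CPM (5.46 ± 0.76, edgeR adjusted p = 0.0247), and Hoxa4 at 0.436 and 0.471 CPM against 16.4, 9.99, 12.6 and 8.26 CPM (4.69 ± 0.49, adjusted p = 0.0169). Hoxa3 and Hoxa5 rose by 4.54 ± 0.61 and 3.61 ± 0.53. Of 15 posterior Hox genes 6 fell and 0 rose by edgeR, while DESeq2 called 9 lower and 3 higher. All CRISPRa libraries lay below both controls for 10 of the 15 and above both for 3, and 5 had a positive log2 fold change. Hoxb13, the most caudal HoxB gene, was at 66.3 and 79.1 CPM against 0.0445, 0.0946, 0.459 and 0.197 CPM (-8.47 ± 0.75, adjusted p = 0.0125). Hoxc13, Hoxc12 and Hoxc11, which lie side by side on chromosome 15, fell by 5.32, 7.48 and 3.77. In the HoxA cluster itself Hoxa10 and Hoxa11 fell while Hoxa2 to Hoxa5 rose. The strand setting of the counts is not given, so reads of antisense transcripts in these clusters cannot be told apart from those of the genes.

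Of 40 genes of DNA replication and mitosis 18 rose and 0 fell, and 36 had all CRISPRa libraries above both controls against 1 below. The median log2 fold change was 3.28, and it was 3.39 early and 3.20 late. Mcm6, a subunit of the replicative helicase, was at 19.1 and 15.1 CPM in fibroblasts against 239, 74.5, 166 and 137 CPM (log2 fold change 3.17 ± 0.53, edgeR adjusted p = 0.0306). Top2a, which untangles DNA in mitosis, had 22.6 and 15.9 CPM against 613, 124, 291 and 286 CPM (4.09 ± 0.75, adjusted p = 0.0346). Early replicate 2 was the lowest CRISPRa library for both and early replicate 1 the highest, so the stages did not order them. Mcm3 and Rrm1, a ribonucleotide reductase subunit, rose by 3.8 ± 0.67 and 2.34 ± 0.44. The gene of this list below both controls in all CRISPRa libraries was E2f1, an activator of S phase, at 82.4 and 85.7 CPM against 56.8, 60.6, 44.2 and 32.0 CPM (-0.80 ± 0.27, adjusted p = 0.105), a gene picked after its values were seen.

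Inhibitors of the cell cycle went both ways. Of 24 inhibitor and p53 target genes 7 fell and 3 rose, with a median log2 fold change of -0.49. Cdkn1a, the p21 inhibitor induced by p53, was at 622 and 609 CPM against 148, 127, 183 and 112 CPM (-2.11 ± 0.23, edgeR adjusted p = 0.0175). Cdkn2b, the p15 inhibitor, was at 211 and 232 CPM against 8.37, 15.4, 10.9 and 3.57 CPM (-4.54 ± 0.53, adjusted p = 0.0205), and Cdkn2a, its neighbour on chromosome 4 that encodes p16 and p19ARF, at 569 and 568 CPM against 44.4, 104, 29.4 and 10.9 CPM (-3.59 ± 0.79, adjusted p = 0.0459). Ccng1, a p53 target cyclin, fell by 1.96 ± 0.28, from 1808 and 1656 CPM to 289 to 536 CPM. The 3 that rose were other inhibitors, Cdkn1b, Cdkn2c and Cdkn2d. Cdkn1b, the p27 inhibitor of quiescent cells, was at 31.9 and 29.4 CPM against 133, 196, 129 and 102 CPM (2.19 ± 0.31, adjusted p = 0.0253), and Cdkn2c, the p18 inhibitor, at 14.2 and 8.06 CPM against 42.1 to 74.0 CPM (2.20 ± 0.39, adjusted p = 0.0333).

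Chromatin genes of the polycomb and DNA methylation systems rose for 6 of 24 members and fell for 0. All CRISPRa libraries lay above both controls for 14 members and below both for 3. Ezh2, the histone H3 lysine 27 methyltransferase, was at 12.8 and 8.91 CPM against 101, 49.1, 73.2 and 47.5 CPM (2.64 ± 0.43, edgeR adjusted p = 0.0290). Uhrf1, which recruits the maintenance DNA methyltransferase in S phase, rose by 3.78 ± 0.78 and followed the order of Mcm6 and Top2a, with 158 CPM in early replicate 1 and 26.1 CPM in early replicate 2. Mtf2, a polycomb-like protein, rose by 1.78 ± 0.36.

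In the list of Wnt signals, antagonists and receptors 7 of 26 members fell and 2 rose. All CRISPRa libraries lay below both controls for 10 members and above both for 6. The median log2 fold change was 0.56 pooled, -0.83 in early and 0.646 in late libraries, so its sign differed between the stages. Rspo2, a secreted enhancer of Wnt signalling, was at 39.2 and 94.5 CPM in fibroblasts against 0.401, 0.473, 0.417 and 0.197 CPM (-7.49 ± 0.52, edgeR adjusted p = 0.00901). Dkk2, which blocks the Wnt coreceptor, was at 2246 and 1919 CPM against 38.7, 55.2, 30.8 and 22.97 CPM (-5.82 ± 0.39, adjusted p = 0.00858), and Wnt5a, a non-canonical ligand, at 337 and 283 CPM against 69.6, 57.7, 63.0 and 46.3 CPM (-2.39 ± 0.21, adjusted p = 0.0121). The genes that fell thus included a ligand, an enhancer and an antagonist. Lgr5, the R-spondin receptor, fell by 4.95 ± 0.52. The rising members were Axin2, a feedback target of canonical Wnt signalling, at 1.24 and 1.12 CPM against 4.41, 6.25, 5.13 and 4.61 CPM (2.11 ± 0.42, adjusted p = 0.0397), and Sfrp4, a secreted antagonist (3.63 ± 0.81, adjusted p = 0.0463).

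In the TGF-beta and BMP list 6 of 34 members fell and 2 rose, with a median of -0.52. All CRISPRa libraries lay below both controls for 14 members and above both for 3. Bmp7, a BMP ligand, was at 79.8 and 48.2 CPM against 1.07, 1.09, 3.58 and 1.94 CPM (-5.05 ± 0.57, edgeR adjusted p = 0.0194). Bmp4, a BMP ligand of the mesoderm, rose from 11.7 and 25.7 CPM to 80.8, 127, 84.6 and 50.8 CPM (2.20 ± 0.51, adjusted p = 0.0487), and Tgfbr1, a type I receptor, rose by 1.16 ± 0.22 (adjusted p = 0.0357). Among retinoid genes 3 of 17 fell and 2 rose. The retinoic acid-binding proteins Crabp1 and Crabp2 (-4.21 ± 0.94) and the retinol dehydrogenase Rdh10 (-1.88 ± 0.38) fell. Aldh1a2, the enzyme that makes retinoic acid in the embryonic mesoderm, rose. It was at 1.07 and 0.441 CPM against 6.95, 6.39, 9.21 and 10.6 CPM (3.45 ± 0.58, adjusted p = 0.0306). In the IGF list 1 of 17 fell, the protease Pappa2 (-3.84 ± 0.60), and 0 rose.

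Progenitor and mesoderm markers rose for 7 of 24 members and fell for 2. Osr1, a factor of the lateral and intermediate mesoderm, was at 8.80 and 13.3 CPM against 133, 141, 118 and 63.3 CPM (3.37 ± 0.44, edgeR adjusted p = 0.0223). Six2, a factor of kidney progenitors and the second heart field, was at 0.134 and 0.118 CPM against 4.81, 3.60, 5.84 and 2.36 CPM (4.99 ± 0.68, adjusted p = 0.0242). Fgf10, a growth factor of the second heart field and of dermal cells, fell instead, from 293 and 283 CPM to 5.52, 12.4, 11.1 and 1.35 CPM (-5.25 ± 0.81, adjusted p = 0.0280). Sox9, a factor of cartilage and of valve and epithelial progenitors in the list of cartilage and bone genes, rose from 15.1 and 8.41 CPM to 98.3, 116, 104 and 61.3 CPM (3.01 ± 0.40, adjusted p = 0.0238). In that list Col11a1, a cartilage collagen also made by fibroblasts, fell by 3.29 ± 0.47, and the other 10 tested members were not called.

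Acute-phase and complement genes rose for 3 of 14 members and fell for 0, with 8 above both controls in all CRISPRa libraries and 1 below. Their summed level was 129 and 265 CPM in controls against 1180, 11350, 1601 and 1067 CPM in early and late libraries, so early replicate 2 was far above the rest. Among them Cp, ceruloplasmin, the copper-carrying ferroxidase, was at 20.8 and 34.0 CPM against 695, 839, 737 and 558 CPM (4.69 ± 0.36, edgeR adjusted p = 0.00901). C3, the central complement protein, also lay above both controls in every CRISPRa library but mainly in 1 of them, at 23.3 and 36.1 CPM against 62.7, 4034, 59.8 and 85.1 CPM (adjusted p = 0.210). Of 14 chemokines 2 rose and 2 fell. Cxcl1, a neutrophil attractant, rose by 4.08 ± 0.91 and Cx3cl1, fractalkine, by 2.21 ± 0.40, while Cxcl5 and Ccl7 fell by 4.66 and 1.26 on the log2 scale (adjusted p from 0.0290 to 0.0460 for the 4). Interferon-stimulated genes gave 1 call of 32 by edgeR, Ifit2, which fell by 1.85 ± 0.38, fewer than the shares over all genes would give. Of the 32 members 25 had a positive log2 fold change, 9 lay above both controls and 2 below, and 11 had an unadjusted p under 0.05, while DESeq2 called 10 higher and 2 lower. Their median was 1.31 pooled, 1.72 in early and 0.413 in late libraries. The MHC class I list gave 1 call of 18, the proteasome activator Psme1, which rose by 0.99 ± 0.21.

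**Figure D4:**
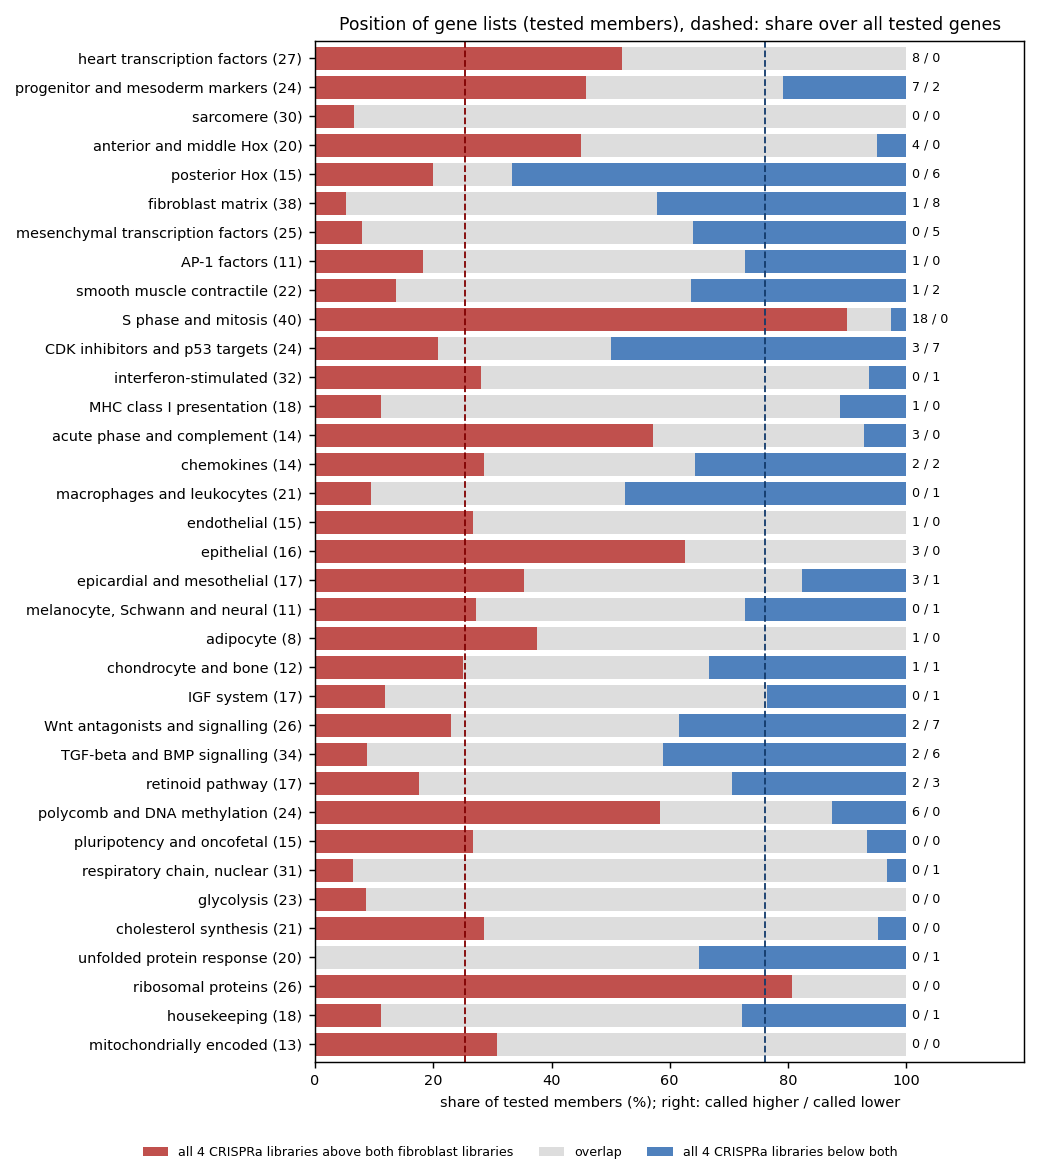
Share of tested members of 35 gene lists with all 4 CRISPRa libraries above both controls (red), below both (blue) or overlapping (grey), with the number tested in brackets and the numbers called higher and lower at the right. The dashed lines mark the shares over all tested genes, 25.4% above and 23.8% below. The replication and ribosomal protein lists are mostly red, at 36 of 40 and 21 of 26 members. The posterior Hox list is mostly blue, at 10 of 15, with 3 of 15 red.

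Markers of other cell types were compared in the same way, since the cultures could hold them in unequal number. Of 21 macrophage and leukocyte genes 1 fell, Cd68, a lysosomal protein of macrophages (11.8 and 34.6 CPM against 1.74, 1.18, 1.17 and 4.72 CPM, edgeR adjusted p = 0.0453), and 10 lay below both controls in all CRISPRa libraries. Over all tested genes 5.96% fell and 23.8% lay below both, so the count of calls is near the background. The summed level of the list was 356 and 1465 CPM in controls against 117, 53, 73.5 and 346 CPM in early and late libraries. Cd14, a listed member that lay above both controls, made up 111, 40.2, 67.1 and 73.0 CPM of the CRISPRa sums. It had 20.2 and 35.4 CPM in controls (edgeR adjusted p = 0.09999). The median log2 fold change of the list was -2.89 pooled, -7.54 early and -1.90 late, and 3 of the 21 members had a positive one. Of the markers that define leukocytes, Ptprc (CD45) was at 3.93 and 17.6 CPM against 0.0445, 0.0946, 0.0834 and 3.88 CPM, and Adgre1 (F4/80) at 15.7 and 73.8 CPM against 0, 0.0473, 0.125 and 8.71 CPM. The part of such cells in the falls described above was not tested.

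Of 16 epithelial genes 3 rose, 0 fell and 10 lay above both controls in all CRISPRa libraries, with sums of 99.0 and 44.3 CPM in controls against 479, 126, 588 and 1129 CPM in CRISPRa libraries. Krt19 alone accounted for 444 and 105 CPM of the early sums and for 202 and 225 CPM of the late ones. Most of the late sums thus came from other members, which were largely not called. The median log2 fold change of the list was 5.73 pooled, 1.72 early and 6.16 late. The other called members were near the detection limit of the controls. Cldn3, a tight junction claudin, had 1 fibroblast count and was at 1.56, 1.04, 0.834 and 0.899 CPM (ratio 67.2, exact 95% counting interval 11.8 to 2680, edgeR adjusted p = 0.0307), and Krt15, a keratin of basal epithelium, had 1 fibroblast count as well and was at 0.284 to 0.786 CPM (ratio 36.4, interval 6.28 to 1460, adjusted p = 0.0445). Of 15 endothelial genes 1 rose, Plvap, a protein of fenestrated endothelium, at 0.302 and 0.294 CPM against 5.70, 11.2, 4.54 and 23.2 CPM (5.21 ± 0.97, adjusted p = 0.0350). Pecam1, an adhesion molecule of endothelium, was at 0.101 and 0.324 CPM against 0.846, 1.23, 1.38 and 129 CPM without passing the test (adjusted p = 0.181). Of 17 epicardial and mesothelial genes 3 rose (Podxl, Krt19 and Aldh1a2) and 1 fell, Sema3d, a guidance factor (-3.43 ± 0.60). Of 8 adipocyte genes 1 rose, Cebpa (0.99 ± 0.21), and of 11 melanocyte, Schwann and neural genes 1 fell, Stmn2.

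Sarcomere genes gave no call across the pooled stages. Of 30 members 0 passed the edgeR test (2 at an unadjusted p under 0.05, and 3 called by DESeq2). All CRISPRa libraries lay above both controls for 2, although 29 had a positive pooled log2 fold change. The median log2 fold change was 7.18 pooled, -1.53 early and 8.18 late. The summed level was 84180 CPM in late replicate 2 and 1370 to 1508 CPM in the other CRISPRa libraries, against 1603 and 2219 CPM in controls. Myh6, the cardiac myosin heavy chain, was at 7.82 and 62.8 CPM in fibroblasts, 5.83 and 5.92 CPM early, then 25.8 and 25360 CPM in late replicates 1 and 2 (edgeR adjusted p = 0.307). Acta1, skeletal alpha actin, was above both controls everywhere, at 7.02 and 7.0 CPM against 28.7, 27.0, 25.1 and 85.6 CPM (2.57 ± 0.66, adjusted p = 0.0586). The 31 nuclear genes of the respiratory chain had 1 call, Cox6a1, which fell by 0.87 ± 0.19, and 28 with overlapping arms. Their sum was 21800 CPM in late replicate 2 against 4149 to 5301 CPM in the other 5 libraries.

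Genes of basic cell functions had few calls. Of 26 ribosomal protein genes 0 passed the edgeR test (11 at an unadjusted p under 0.05, and 4 called by DESeq2), while 21 had all CRISPRa libraries above both controls and 0 below, with a median log2 fold change of 0.55. Rps23 was at 296 and 261 CPM against 586, 460, 485 and 373 CPM (0.77 ± 0.24, adjusted p = 0.0838), and Rpl7 at 495 and 439 CPM against 967, 674, 809 and 668 CPM (0.74 ± 0.24, adjusted p = 0.0934). Ribosomal protein genes have many retrocopies, so their counts depend on how reads with several positions were treated, which is not given. In the unfolded protein response list 1 of 20 fell, the chaperone Calr, from 1585 and 1946 CPM to 750 to 1025 CPM (-1.06 ± 0.22, adjusted p = 0.0424), and 7 lay below both controls against 0 above. Of 18 genes often used as references 1 fell, Rab7, a late endosome GTPase, from 709 and 656 CPM to 285, 392, 262 and 315 CPM (-1.12 ± 0.22, adjusted p = 0.0363). The AP-1 list gave 1 call of 11, Batf3, which had no fibroblast counts and was at 0.237 to 2.42 CPM, at least 30.4-fold higher against the floor of 3 counts (adjusted p = 0.0484). By edgeR 0 of 23 glycolysis, 0 of 21 cholesterol synthesis and 0 of 15 pluripotency genes were called, with 1, 5 and 4 at an unadjusted p under 0.05.

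Genes on the same side of the controls at both stages could still differ widely between them. Cck, the peptide hormone cholecystokinin, was at 443 and 336 CPM in fibroblasts, 59.6 and 35.1 CPM early and 1.29 and 0.590 CPM late. Hmcn1, hemicentin of basement membranes, ran in the other order, with 51.2 and 67.9 CPM in fibroblasts, 0.445 and 0.615 CPM early and 11.4 and 36.2 CPM late. Itga8, an integrin subunit, and Sfrp2, a Wnt modulator, likewise were lowest early, at 0.312 and 0.615 CPM and at 1.29 and 0.521 CPM, and partly higher late, at 10.7 and 18.8 CPM and at 33.3 and 10.9 CPM. Mcam, an adhesion molecule of pericytes and melanoma cells, was at 2.12 and 1.32 CPM in fibroblasts, 7.53 and 6.10 CPM early and 69.9 and 76.6 CPM late. For these 5 genes both replicates of a stage lay on the same side of the other stage, and late against early had edgeR adjusted p from 0.254 to 0.290, so the difference between stages was not called. Eef1a2, a muscle and neuronal elongation factor, and Itgbl1, an integrin-like protein, instead rested on 1 library, at 854 CPM in late replicate 2 against 5.0 to 6.81 CPM in the other CRISPRa libraries, and at 639 CPM in early replicate 2 against 3.25 to 6.75 CPM.

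Shared changes were spread unevenly over the chromosomes, which was noticed after the values were seen. On chromosome 15, 36.0% of 634 tested genes had all CRISPRa libraries above both controls and 15.6% below, against 25.4% and 23.8% over all genes. On chromosome 3 the shares were 20.4% above and 33.8% below of 858 genes, and on chromosome 4 19.6% and 29.1% of 1030. Of the 10 tested genes on the Y chromosome 6 lay above both controls and 1 below, and 3 were called higher. Kdm5d, a histone demethylase, was at 5.74 and 11.6 CPM in controls against 37.1, 38.9, 27.8 and 32.0 CPM in early and late libraries (log2 fold change 1.97 ± 0.36, edgeR adjusted p = 0.0337). Eif2s3y, a translation factor subunit, was at 22.999 and 33.3 CPM against 63.6, 72.9, 47.6 and 58.2 CPM (1.10 ± 0.26, adjusted p = 0.0492), and the third was the gene model Gm47283 (4.29 ± 0.82, adjusted p = 0.0363). Fibroblast replicate 1 and late replicate 1, the libraries with Xist, thus also held transcripts of the Y, and were the lower library of their pair for Kdm5d and Eif2s3y. Both genes have relatives on the X, and the treatment of reads with several positions is not given. The median over genes of a chromosome was also taken per library, as log2 CPM minus the fibroblast mean, centred on the median of all genes, for genes with a mean log2 CPM of at least 3. On chromosome 15 (393 genes) that median was 0.375 and 0.218 in early and 0.425 and 0.318 in late libraries, and 0.017 and -0.017 in the controls. On chromosome 3 (471 genes) it was -0.227, -0.292, -0.220 and -0.167, and on chromosome 4 (613 genes) -0.304, -0.164, -0.315 and -0.157. Chromosome 16 (316 genes) was at -0.285, -0.020, -0.212 and -0.145. Other chromosomes with the same sign in all 4 CRISPRa libraries included chromosome 6 (479 genes), from 0.086 to 0.148. They also included chromosome 19 (359 genes), from -0.163 to -0.070. Chromosome 10 stood out in early replicate 2 alone, at 0.268 against -0.010 to 0.027 in the other CRISPRa libraries.

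With the genes of a chromosome cut into 4 blocks of neighbours, the 4 CRISPRa libraries were positive in each block of chromosome 15, from 0.146 to 0.459, and negative in each block of chromosome 3, from -0.381 to -0.065. On chromosome 4 the first block by coordinate was at 0.328 in early replicate 2 and at -0.298, -0.288 and -0.282 in the other CRISPRa libraries. Calls on chromosome 15 went both ways and were larger than these medians. Zfpm2, Pim3 and Col14a1 lie on it and rose by 2.06, 2.24 and 6.22, and Rspo2 and Hoxc11 to Hoxc13 lie on it too and fell. Over all tested genes in place of the more expressed ones, the medians were 0.185 to 0.357 on chromosome 15, -0.289 to -0.184 on chromosome 3 and -0.264 to -0.129 on chromosome 4. Gene copy number was not measured, and the cause of the shifts was not tested.

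**Figure D5:**
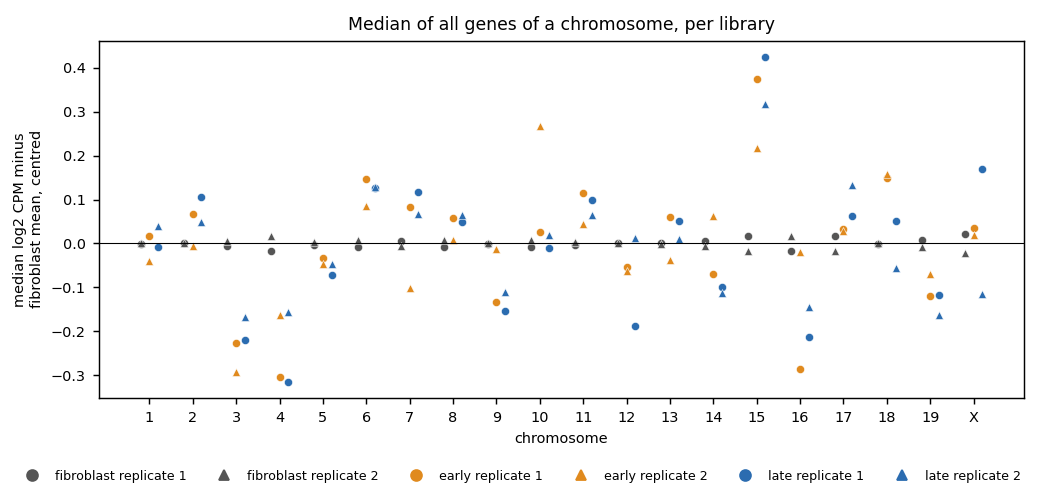
Median over the genes of each chromosome of log2 CPM minus the fibroblast mean, centred on all genes, in each library. Grey marks are fibroblast, orange early and blue late libraries. The 4 CRISPRa libraries sit between 0.218 and 0.425 on chromosome 15, between -0.292 and -0.167 on chromosome 3 and between -0.315 and -0.157 on chromosome 4.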

How the data were processed

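RNA sequencing of 6 mouse libraries gave 1 table of read counts per gene. The counts are raw numbers as the authors deposited them; the submitters' processing notes name Trimmomatic 0.36, STAR 2.5.2b, featureCounts (Subread 1.5.2) and the GRCm38 build, but neither they nor the labels used here state the annotation release, strand setting or treatment of reads with several positions. Symbols came from a gene annotation of the same build for 49056 of 49315 listed identifiers. Genes were filtered with edgeR's filterByExpr by arm (minimum count 10), leaving 16688, scaled by TMM and tested with edgeR 4.0.16 in R 4.3.3 (robust quasi-likelihood, 2 arms, 4 residual degrees of freedom, Benjamini-Hochberg adjustment over all tested genes, threshold 0.05). A 3-group fit gave the values per stage. CPM are TMM-scaled, and a floor of 3 counts is 0.0843 to 0.142 CPM per library. The standard error (SE) given with a log2 fold change was derived from the test. It is the size of the log2 fold change divided by the square root of the F statistic. Counting intervals and floors cover counting error only.

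Alternatives were DESeq2 1.42.0, RLE size factors, no low-count filter, the 3-group model with and without replicate number as a block, leaving out each library, and, chosen after the data were seen, leaving out both libraries of a stage. The fitting code was tested on simulated data. Members and gene lists were chosen with earlier results of these data known. Named genes are the 12 largest rises and falls among called genes with a mean log2 CPM of at least 3, the 8 evenest rises and falls of at least 2 on the log2 scale, the 6 most uneven of each, 6 heart factors, and of each of 35 lists the 4 members with the smallest p and any called member of a list with at most 5. Results for some genes that meet this rule are not reported here. Adgre1, Axin2, Bmp4, Cdkn2a, Cdkn2c, Cdkn2d, Col1a1, E2f1, Eif2s3y, Gata5, Gm47283, Hoxa10, Hoxa11, Kdm5d, Myh6, Ptprc, Sfrp4, Tbx20 and Xist fall outside that rule and were named after their values were seen.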

Additional observations from a re-analysis of the deposited data

Results flagged for a closer look

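Among the 4 CRISPRa libraries, 1 library stood far from the other 3 for several of the genes and summed levels given above, by the gap to the nearest library relative to the range of the 4. Of 172 such groups 15 were flagged. Chance flags about 1 in 20 groups that were not picked by their values, a rate that does not hold here, since some of these genes were picked for a large or small spread over the same libraries or named after their values were seen. Late replicate 2 was apart most often. It held the highest sarcomere sum (84180 CPM against at most 1508 CPM), adipocyte sum (2935 CPM against at most 305 CPM) and respiratory chain sum (21800 CPM against at most 5301 CPM), and mitochondrial transcripts made up 10.27% of its counts. Single genes highest in it were Acta1 at 85.6 CPM, Eef1a2 at 854 CPM, Frmd5 at 178 CPM, Pecam1 at 129 CPM and Ptprc at 3.88 CPM, and Hoxa5 was lowest in it at 19.7 CPM. Early replicate 2 was apart for C3 at 4034 CPM and for Itgbl1 at 639 CPM. Early replicate 1 was apart for Cdkn2c at 74.0 CPM and Cdkn2d at 41.6 CPM, where the other CRISPRa libraries also lay above both controls. Late replicate 1 was apart for Xist at 61.2 CPM.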

How the results depend on the processing

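No low-count filter gave 455 genes higher and 743 lower in CRISPRa libraries, RLE size factors 708 and 982, the 3-group model 563 and 1094 and DESeq2 2511 and 2115. Leaving out 1 library at a time gave 0 to 1554 higher and 0 to 1666 lower, and genes with all CRISPRa libraries above or below both controls numbered 4377 to 5440 and 4172 to 5014. Separation is easier with fewer libraries, so the numbers above or below both controls could hardly do other than grow. Without both early libraries 540 genes were called higher and 476 lower, and without both late libraries 712 and 757. The causes were not tested. With replicate number as a block in the 3-group model, 224 were higher and 466 lower. Same-numbered libraries correlated at 0.121, 0.238 and 0.0859 in their deviations, so the numbers were not taken as pairs. Of 114 called genes named with values, all kept their direction wherever they were fitted. Their CRISPRa libraries all lay on one side of both controls, which largely fixed this in advance. All 114 lost their call without either fibroblast library, 93 without early replicate 1, 93 without late replicate 1, 8 without early replicate 2, 2 without late replicate 2, 45 without both early libraries, 34 of 112 without both late libraries, 42 with the replicate block (adjusted p 0.0504 to 0.0871), 18 without the low-count filter, 9 in the 3-group model and 0 with DESeq2 or RLE size factors. Uncalled genes that changed sign were Col1a1, from -0.77 to 0.40 without 1 library and 0.21 without both late libraries; Mef2c, at -0.026 with the replicate block, from -0.33 to 0.62 without 1 library and -0.21 without both late libraries; Myh6, from -1.48 (without late replicate 2) to 9.64 and -2.54 without both late libraries; and Xist, from -1.83 to 6.97 (without fibroblast replicate 1) and 0.23 without both early libraries. Depth limits genes near the floor of 3 counts, among them Gata5, Batf3, Tbx5, Cldn3 and Krt15 in fibroblasts.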

Other observations

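Processed pseudogenes, retrocopies of messenger RNAs, made up 49 of the 721 genes that rose (6.80%) and 5 of the 995 that fell (0.503%), against 884 of the 16688 tested (5.30%). Their reads cannot be told apart from those of near-identical parent genes without knowing how reads with several positions were counted. Long intergenic RNAs were 7 of the genes that rose and 27 of those that fell, of 337 tested. Among genes that fell, late libraries lay further from the controls than early ones for 580 of 995, and among those that rose for 245 of 721. In both sets late libraries thus lay below early ones more often than above. The share over all tested genes is not given, so these counts do not set rises or falls apart. The late values include late replicate 2, which stood apart.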
